A study of Mus musculus with 5 samples.

Results

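The genes whose symbols begin with Kcn, most of which encode potassium channel subunits, were followed through single-nucleus RNA-seq of sorted nuclei from the mouse brain. Members were all such symbols in the deposited gene list, without pseudogenes and without symbols ending in os or ot1, which left out 3 transcripts (Kcnd3os, Kcnq1ot1 and Kcnab3os). The rule gave 96 of 32285 genes. Kcnmb4os1 and Kcnmb4os2, opposite-strand transcripts whose symbols end in a digit, stayed in by the letter of the rule. The other 94 members are genes of channel subunits or, for Kcnrg, of a regulator of channel assembly. The questions were which channels mark each class of nuclei, and which differed in microglia between mice with and without the R241E allele of Cgas.

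There were 5 libraries, each from 1 mouse, and all mice carried the Tmem119-creERT2 driver, a tamoxifen-dependent recombinase whose action the study describes as largely limited to microglia and brain macrophages. The 2 R241E libraries came from mice with 1 R241E allele and 1 wild-type allele of Cgas (the DNA sensor cGAS, here unable to bind nucleosomes once the allele is switched on), and the 3 WT libraries from mice with 2 wild-type alleles. These groups follow the sample titles. The study's methods also name wild-type Cgas for the controls, its results name heterozygous mice, and gene counts cannot settle which. By the methods, tamoxifen was given to young adults. The sex of the mice was not given, and a treatment text on H151 and DMSO that accompanies every sample was assigned to none. Nuclei were labelled as hippocampus and were sorted as DAPI positive, NeuN negative and Olig2 negative, a gate that enriches microglia.

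Potassium channels let potassium ions leave or enter a cell and thereby set its resting voltage. Voltage-gated subunits (Kcna to Kcnd, Kcnh, Kcnq and others) open on depolarization and end neuronal spikes. Inward rectifiers (Kcnj) hold the resting voltage and, in glia, carry away extracellular potassium, and 2-pore domain channels (Kcnk) give the standing leak. Calcium- or sodium-activated channels (Kcnma1, Kcnn, Kcnt) tie the current to intracellular ions, and auxiliary subunits (Kcnab, Kcne, Kcnip, Kcnmb) change how the others open. In microglia the leak through the 2-pore domain channel THIK-1, encoded by Kcnk13, is known to keep the resting voltage negative and to be linked to NLRP3 inflammasome activation.

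The files held 9748 nuclei with 1381 to 2490 nuclei and 4183709 to 10130667 unique molecular identifiers (UMIs, 1 per captured RNA molecule) per library, and 9505 nuclei were kept. Clustering without the Kcn genes gave 25 clusters, all named from marker genes, in 13 classes. There were 5359 microglial nuclei, 519 to 1470 per library, in which the microglial marker list summed to 7483 to 8800 CPM (UMIs of a gene per 1000000 UMIs of that class in that library). Border-associated macrophages, a class of MHC class II-high myeloid nuclei, lymphocytes, mural cells, fibroblasts, astrocytes, oligodendrocytes and neurons were also present, although the gate was set against neurons and oligodendrocytes. The MHC class II-high class carried as many monocyte or neutrophil markers as markers of its own among its leading genes, 4 of each, and is therefore mixed. Tanycytes (133 of 188 nuclei) and pituitary cells (51 of 53) came mostly from R241E replicate 1. Some GABAergic neuron clusters came mostly from a single library: 147 of 190 and 18 of 19 nuclei from WT replicate 1, and 46 of 64 from R241E replicate 2. Between 0 and 2 barcodes were shared by any pair of libraries. Of the 96 members, 92 had at least 1 UMI in kept nuclei and 4 (Kcnj1, Kcnj15, Kcnk16 and Kcnk18) had none.

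The stretches of genome just before a transcript start are shown first for 3 of these members that recur in the results below. They are Kcnj10 and Kcnk12, called between genotypes in microglia, and Kcnk13, the leak channel gene known from microglia. Each line gives the 250 bases before a RefSeq transcript start (mouse GRCm38.p6, the assembly called mm10), read 5′ to 3′ on the strand of the gene. Capitals mark AGGAAG on either strand, the purine-rich core bound by ETS factors such as PU.1. The windows are chr1:172340960-172341209 on the plus strand for Kcnj10, chr17:87797995-87798244 on the minus strand for Kcnk12 and chr12:99964249-99964498 on the plus strand for Kcnk13. The first pair abut the ends of their genes, while the Kcnk13 window precedes a transcript start inside the span of the gene, which RefSeq places at chr12:99963149-100062682.
Kcnj10: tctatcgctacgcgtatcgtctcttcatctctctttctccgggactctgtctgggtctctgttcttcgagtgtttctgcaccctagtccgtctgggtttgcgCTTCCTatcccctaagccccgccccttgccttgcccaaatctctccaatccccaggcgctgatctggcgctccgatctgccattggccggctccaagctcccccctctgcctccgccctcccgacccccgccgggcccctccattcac
Kcnk12: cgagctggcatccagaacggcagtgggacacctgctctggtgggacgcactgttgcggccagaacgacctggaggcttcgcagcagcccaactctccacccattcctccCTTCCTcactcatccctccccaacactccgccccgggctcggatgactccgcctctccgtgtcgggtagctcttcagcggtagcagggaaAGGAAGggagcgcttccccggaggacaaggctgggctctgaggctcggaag
Kcnk13: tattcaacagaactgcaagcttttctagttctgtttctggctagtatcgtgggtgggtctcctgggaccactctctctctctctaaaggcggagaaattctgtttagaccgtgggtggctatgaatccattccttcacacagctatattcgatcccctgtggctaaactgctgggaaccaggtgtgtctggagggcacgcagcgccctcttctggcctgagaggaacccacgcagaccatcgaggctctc
The Kcnj10 window holds 1 match, which begins 148 bases before the start, and its GC content is 62.0%. The Kcnk12 window holds 2 matches, 141 and 51 bases before the start, at a GC content of 64.8%. The Kcnk13 window holds no match and has a GC content of 52.8%. AGGAAG was found in 29.5% of all 32841 promoter windows of this length and in 33 of the 95 windows of members (34.7%), which belong to 70 of the members, since a gene can have several windows. Among windows of members tested in microglia below, 13 of 31 held it (41.9%), and of those called between genotypes 3 of 9 (33.3%). A link between matches and genotype was not tested. A match is a string of letters and shows no binding.

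Potassium channel RNA took a different share of the UMIs in each class. Summed over all members, it was 2.45% ± 0.115 of UMIs in pan-neuron nuclei (SD, n = 5 libraries), a class led by Reln and Trp73 that carried general neuronal markers, and 0.988% ± 0.214 in GABAergic neurons. Astrocytes had 0.518% ± 0.125, oligodendrocytes 0.336% ± 0.0205 and fibroblasts 0.273% ± 0.0425. Microglia had 0.133% ± 0.00579, with 5 libraries between 0.126% and 0.141%. Mural cells (0.152% ± 0.0248) and microglia did not separate by library, while border-associated macrophages (0.0979% ± 0.00962) lay below microglia in every library. Counts were not scaled by gene length, so no level is compared between genes below.

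A member was said to mark a class where it had at least 50 UMIs there and a higher CPM than in any other class in every library with 20 nuclei of the class. By this rule 23 members marked 7 of the 10 classes that could be compared. The rule describes the classes and no test was made. Members were kept out of the genes used for clustering, and 9455 of 9505 nuclei kept their class when they were let in.

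**Figure D1:**
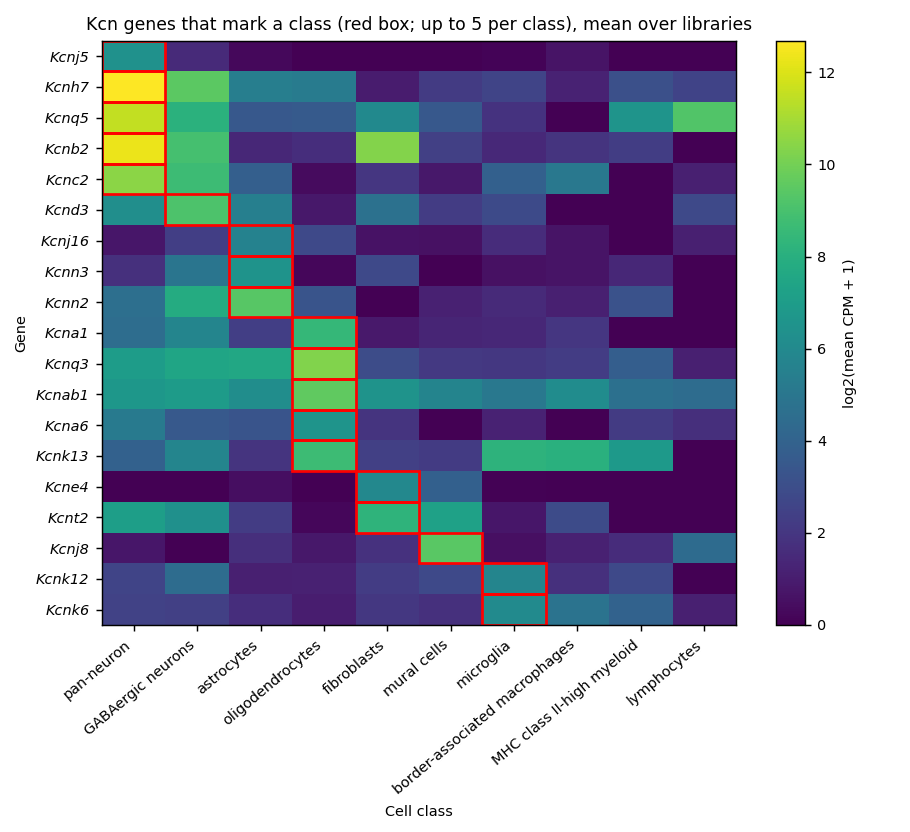
Levels of 19 marking Kcn genes (rows; up to 5 per class, by fold over the next class) in 10 classes (columns), as log2 of the mean CPM over libraries plus 1, with a red box on the class each gene marks. The boxes fall in 7 classes, and lymphocytes, border-associated macrophages and MHC class II-high myeloid nuclei have none.

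Pan-neuron nuclei had 9 marking members, GABAergic neurons 1. The 4 with the largest fold over the next class were Kcnj5, Kcnh7, Kcnq5 and Kcnb2. Kcnj5, a subunit of the G protein-gated inward rectifier, reached 83.4 ± 26.1 CPM from 96 UMIs against 3 UMIs in GABAergic neurons, a pooled ratio of 56.8 with an exact 95% counting interval of 18.9 to 280.3. Kcnh7, a voltage-gated subunit of the ERG family, was at 6594 ± 771.7 CPM against 709.3 in GABAergic neurons, and its 5 libraries lay between 5352 and 7385 CPM. Kcnq5, an M-current subunit, was 4.87-fold and Kcnb2, a delayed rectifier, 3.94-fold above the next class. Kcnb2 and Kcnh7 also stood among the 10 leading genes of 1 of the 2 pan-neuron clusters. Kcnb2 was likewise among those of a fibroblast cluster and a GABAergic cluster, and its next class was fibroblasts, at 1298 CPM. Kcnc2, Kcnip1, Kcnk10 and Kcnk2 were 1.64- to 3.41-fold above the next class. In GABAergic neurons Kcnd3, the A-type channel subunit Kv4.3, was at 345.3, 457.2, 1053, 515.8 and 491.6 CPM in R241E replicates 1 and 2 and WT replicates 1, 2 and 3, against 75.2 CPM on average in pan-neuron nuclei. WT replicate 1, the highest value, is the library that gave most of the GABAergic clusters of 190 and 19 nuclei.

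Astrocytes were marked by Kcnj16, Kcnn3 and Kcnn2. Kcnj16, the Kir5.1 subunit that pairs with Kir4.1, was at 48.2 ± 29.5 CPM and 8.13-fold above oligodendrocytes, on 144 UMIs. Its values were 91.95 and 60.3 CPM in the R241E libraries and 42.7, 30.6 and 15.4 CPM in the WT libraries. Kcnn2 and Kcnn3, small-conductance calcium-activated channels, were at 674.8 ± 110.4 and 92.1 ± 21.7 CPM, 3.04- and 3.12-fold above GABAergic neurons. Kcnj10, which encodes Kir4.1, the main channel by which glia take up potassium, did not mark a class by the rule: it was at 138.8 ± 36.4 CPM in astrocytes and 97.9 ± 16.2 CPM in oligodendrocytes. These ranges, 90.3 to 170.5 and 73.0 to 114.0 CPM, overlap.

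Oligodendrocytes had 5 marking members. Kcna1, Kcnq3, Kcnab1 and Kcna6 were 6.60-, 6.43-, 6.27- and 2.51-fold above the next class. Kcna1 (349.9 ± 50.1 CPM) and Kcna6 (92.2 ± 15.7 CPM) encode Shaker-type voltage-gated subunits, and Kcnab1 (768.1 ± 90.7 CPM) a beta subunit that binds them. Kcnq3, the M-current subunit Kv7.3, was at 1229 ± 126.1 CPM, and its lowest library, at 1084 CPM, was above the highest astrocyte library, at 320.3 CPM. The last was Kcnk13, with 411.7 CPM in oligodendrocytes and 292.7 CPM in microglia, a 1.41-fold difference. The ranges over libraries, 329.9 to 542.0 and 232.8 to 337.9 CPM, overlap, although oligodendrocytes were higher within each library.

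Mural cells, the contractile cells of small vessels, were marked by Kcnj8, the Kir6.1 pore of their ATP-sensitive channel. Kcnj8 had 666.1 and 1015 CPM in R241E, against 804.7, 388.3 and 630.5 CPM in WT, a mean of 700.9 ± 230.9 CPM. It was 33.9-fold above lymphocytes, the next class, which had 5 UMIs. Fibroblasts were marked by Kcne4, an auxiliary subunit that damps voltage-gated channels, at 60.6 ± 14.8 CPM and 4.43-fold above mural cells, and by Kcnt2, a sodium-activated channel, at 305.9 ± 75.7 CPM and 2.03-fold above mural cells. Of the fibroblast nuclei, 1 cluster of 44 had no fibroblast marker and 1 oligodendrocyte precursor marker, Pdgfra, among its 10 leading genes. Pdgfra also led the fibroblast cluster of 239 nuclei, and 8 of 9 fibroblast markers were detected in the cluster of 44. Microglial and mural clusters likewise had none of their own markers among their leading genes.

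Microglia were marked by Kcnk12 and Kcnk6, both of the 2-pore domain family. Kcnk12, the THIK-2 relative of THIK-1 that is known mostly as a silent subunit, was at 54.2 ± 15.8 CPM on 833 UMIs and 2.50-fold above GABAergic neurons. Of the 920 UMIs of Kcnk12 in all kept nuclei, microglia held 833, in a class that makes up 5359 of 9505 nuclei. Kcnk6, the TWIK-2 leak channel known for potassium efflux in macrophages, was at 65.3 ± 11.3 CPM on 930 UMIs and 2.35-fold above border-associated macrophages. Astrocytes, oligodendrocytes and lymphocytes had 1.15, 1.27 and 0 CPM of Kcnk12 and 2.13, 0.989 and 1.14 CPM of Kcnk6.

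Kcnk13 was seen in microglia, border-associated macrophages and oligodendrocytes alike. In microglia the R241E libraries had 306.4 and 232.8 CPM and the WT libraries 320.9, 337.9 and 265.4 CPM. Border-associated macrophages had 260.5 ± 82.1 CPM, a mean within the range of microglia. Their libraries spanned 172.5 to 365.8 CPM, which is wider. In WT replicates 2 and 3 they were at 181.7 and 172.5 CPM, below microglia of the same libraries. MHC class II-high nuclei had 116.2 ± 45.3 CPM. Astrocytes had 2.78 CPM and lymphocytes 0 of 436986 UMIs, a count that allows up to 6.87 CPM. The 3 members whose log2 CPM over the 10 classes was most like that of Kcnk13, among 58 compared, were Kcnj9 (Pearson r = 0.69), Kcnk6 (0.61) and Kcnj2 (0.58). These correlations describe 10 classes that share libraries, and no test was made.

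**Figure D2:**
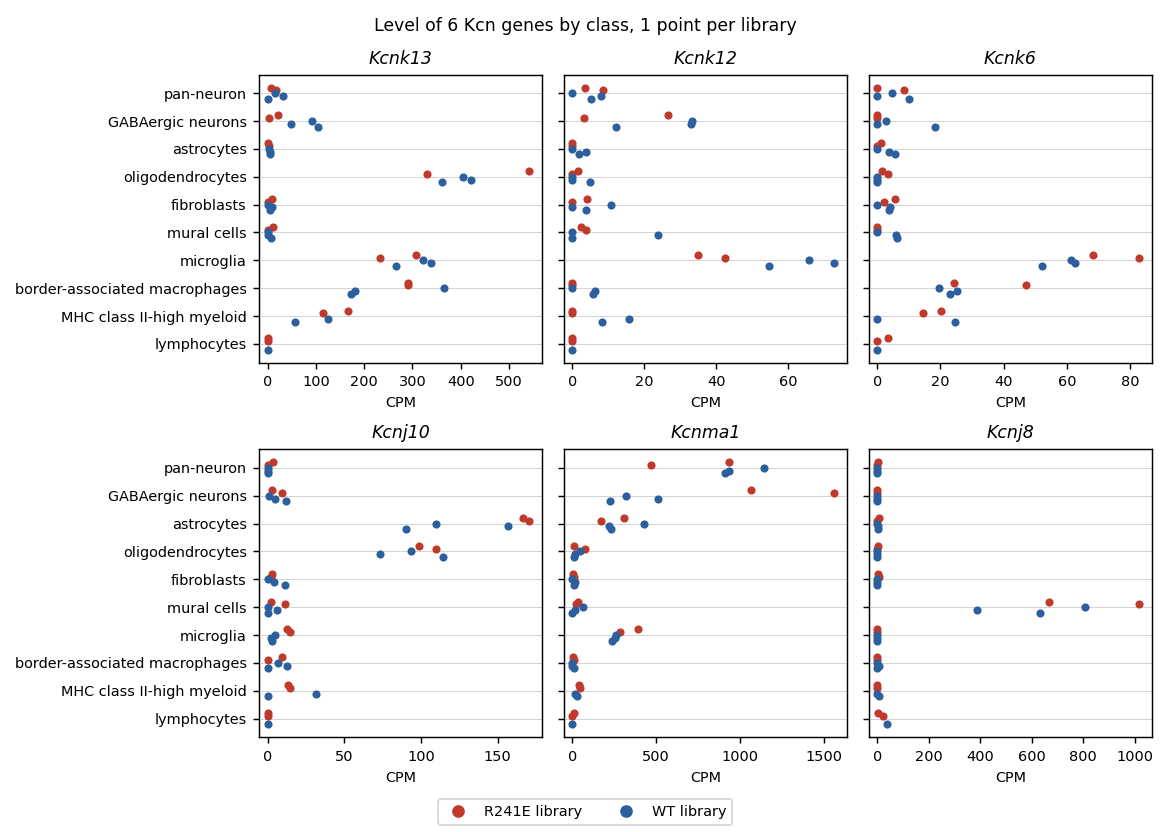
CPM of 6 Kcn genes (panels, linear horizontal axes that differ in range) in 10 classes (rows), 1 point per library with at least 20 nuclei of the class, R241E in red and WT in blue. Kcnk12 and Kcnk6 are highest in microglia, Kcnj8 in mural cells, and Kcnk13 lies high in oligodendrocytes, microglia and border-associated macrophages.

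The second comparison set R241E against WT in microglia, over UMIs summed per library. Of 12689 genes that passed the filter on low counts, 1119 were called (8.82%) at an adjusted p below 0.05 by edgeR's quasi-likelihood test, 5.7% of genes higher and 3.12% lower in R241E. The filter passed 23 of the 96 members and left out 73, of which 12 had no UMI in microglia. Of the 23, 3 were called higher, Kcnj10, Kcnma1 and Kcnd3, and 3 lower, Kcnk12, Kcnc2 and Kcnrg. The other 17 were not called. The filter asks for a minimum in 2 libraries, so a member can pass through the genotype in which it is high. Kcnj10 and Kcnc1 may have passed through R241E alone, and Kcnc2, Kcnd2 and Kcnip1 through WT alone. Estimates were above 0 for 13 members and below 0 for 10, with a median of 0.04 on the log2 scale against -0.0 over all genes tested. CPM values of the genotypes did not overlap for 11 of the 23 members, against 37.6% of all genes tested. Kcnj10, Kcnc1, Kcnc2, Kcnd2 and Kcnip1 are among the 11, so the filter bears on that count. Each library was 1 mouse, so p-values measure the spread between mice. A change in a class summed per library cannot tell fewer nuclei carrying the RNA from less RNA per nucleus.

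**Figure D3:**
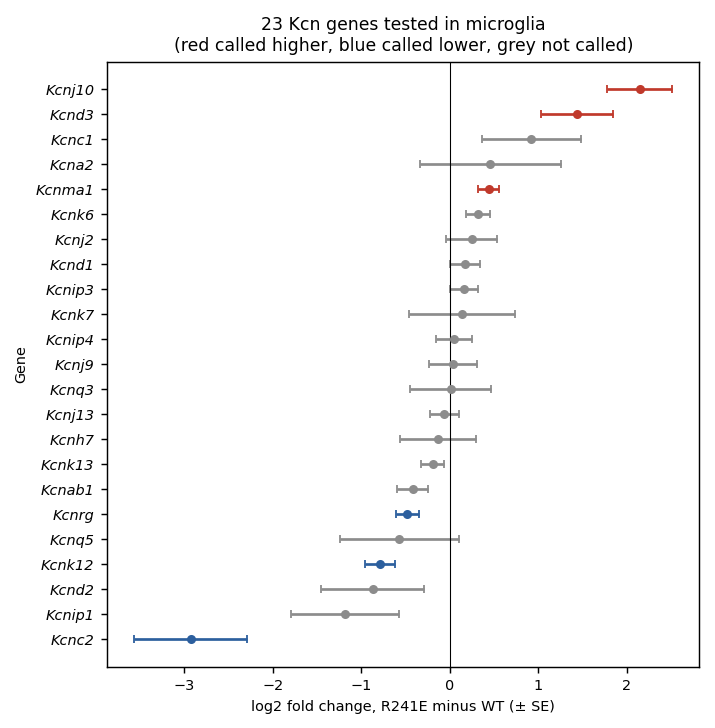
Log2 fold change of R241E over WT in microglia for the 23 Kcn genes tested, with bars of 1 standard error (SE), red where called higher, blue where called lower and grey where not called. Called genes span from Kcnc2 at -2.93 to Kcnj10 at 2.15.

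Among the inward rectifiers, Kcnj10 rose. It had 12.3 and 14.6 CPM in R241E, against 4.46, 1.85 and 3.01 CPM in WT. Both R241E values lie above all WT values, on 60 and 29 UMIs in all. The log2 fold change was 2.15 ± 0.37 (SE), a 4.44-fold difference, with an adjusted p of 0.00113 by edgeR. The gene lies at chr1:172341210-172374085 with no other gene across it. Its RNA is more abundant in astrocytes and oligodendrocytes, so markers of both were counted in microglia. The astrocyte list of 9 genes, all seen, summed to 289.4 and 265.4 CPM in R241E and to 343.2, 291.0 and 267.8 CPM in WT, most of it from Slc1a3. The oligodendrocyte list of 8 genes, all seen, was higher in R241E, at 244.0 and 366.2 CPM against 156.4, 166.5 and 182.4 CPM. Against that list, Kcnj10 had 5.56 UMIs per 1000 list UMIs in oligodendrocytes themselves, 50.4 and 39.8 per 1000 in R241E microglia and 28.5, 11.1 and 16.5 per 1000 in WT microglia. Without the nuclei that held any UMI of these lists other than Slc1a3, which left 3073 nuclei, the estimate was 1.74 with an adjusted p of 0.0727 by edgeR, on fewer UMIs. The part of oligodendrocyte RNA in the difference was not tested. Lymphocytes had no UMI of Kcnj10 and pan-neuron nuclei 1. In astrocytes Kcnj10 had 166.6 and 170.5 CPM in R241E and 109.8, 156.6 and 90.3 CPM in WT, and was not called (adjusted p = 0.494 by edgeR).

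The remaining inward rectifiers in the test were not called. Kcnj2, the Kir2.1 channel of resting microglia and macrophages, had 23.6 and 9.73 CPM in R241E, against 18.6, 12.5 and 15.9 CPM in WT, a log2 difference of 0.25 ± 0.29. R241E held both the highest and the lowest value. Kcnj9 and Kcnj13 had log2 differences of 0.04 ± 0.27 and -0.06 ± 0.16. Kcnj13 lies within Gigyf2, so its reads are uncertain.

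Among 2-pore domain genes, the microglia-marking Kcnk12 fell. It had 35.0 and 42.4 CPM in R241E, against 66.1, 72.9 and 54.7 CPM in WT. The highest R241E value is below the lowest WT value, and the log2 fold change was -0.79 ± 0.17 with an adjusted p of 0.00667 by edgeR. The gene lies at chr17:87745821-87797994 with no other gene across it. Without R241E replicate 1 or without WT replicate 2 the call was lost, with estimates within the range -0.91 to -0.64 that all settings gave. Kcnk6 had 68.1 and 82.7 CPM in R241E, against 61.2, 62.5 and 52.0 CPM in WT. These values do not overlap, but the log2 difference of 0.32 ± 0.14 had an adjusted p of 0.207 by edgeR and was not called. Kcnk13 overlapped between genotypes, with a log2 difference of -0.19 ± 0.13 and an adjusted p of 0.482 by edgeR. Kcnk7 was low, at 18 UMIs in R241E and 38 in WT, with a difference of 0.14 ± 0.60.

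Among calcium- or sodium-activated channels, Kcnma1 alone passed the filter, and it rose. The genes 4930519K11Rik, 5430425E15Rik, Gm46443 and Gm51422 overlap its span, and strand use is not stated. Kcnma1 encodes the pore of the large-conductance BK channel. It had 390.9 and 284.2 CPM in R241E, against 261.4, 251.4 and 236.2 CPM in WT. R241E replicate 1 lies apart from the rest, and R241E replicate 2 lies just above the WT range. The log2 fold change was 0.44 ± 0.12, a 1.36-fold difference, with an adjusted p of 0.0343 by edgeR, and without R241E replicate 1 it was 0.16 with an adjusted p of 0.626. The call was also lost without WT replicate 1, without WT replicate 2 and without nuclei holding neuronal marker UMIs. Kcnn4, the KCa3.1 channel described in reactive microglia, was too low to test, with 9 UMIs in R241E and 14 in WT.

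Among voltage-gated genes, Kcnd3 rose and Kcnc2 fell. Kcnd3 had 8.83 and 11.1 CPM in R241E, against 4.05, 1.85 and 5.11 CPM in WT, a log2 fold change of 1.44 ± 0.41 with an adjusted p of 0.0369 by edgeR. It rests on 44 and 35 UMIs, and the call was lost in 6 of 13 other settings, among them the fits without R241E replicate 1, without R241E replicate 2, without WT replicate 1 and without WT replicate 2. Kcnd3os overlaps Kcnd3, and without stated strand use their reads cannot be told apart. Without nuclei holding neuronal marker UMIs the Kcnd3 estimate was 0.82, with an adjusted p of 0.567 by edgeR. Beside it, the GABAergic marker list in microglia summed to 21.8 and 11.8 CPM in R241E and to 13.8, 10.4 and 16.8 CPM in WT, values that overlap. Kcnc2, the Kv3.2 channel of fast-spiking neurons, had 2.84 and 2.78 CPM in R241E, against 21.5, 34.4 and 7.21 CPM in WT. The log2 fold change was -2.93 ± 0.64 with an adjusted p of 0.00746 by edgeR, on 13 UMIs in R241E and 226 in WT. WT replicate 2 gave 149 of these UMIs, from 56 of its 1470 nuclei and with up to 18 in 1 nucleus. Without R241E replicate 1, and by limma-voom, Kcnc2 was not called. The pan-neuron marker list in microglia overlapped between genotypes, at 114.7 and 107.0 CPM in R241E and 122.8, 113.0 and 114.2 CPM in WT. Per 1000 UMIs of that list, Kcnc2 had 174.2 UMIs in pan-neuron nuclei, 24.7 and 26.0 in R241E microglia and 174.9, 304.1 and 63.2 in WT microglia. In border-associated macrophages Kcnc2 was likewise highest in WT replicate 2, at 87.7 CPM from 14 UMIs, while the other 4 libraries had 11.5 to 32.7 CPM. The part of neuronal or free RNA in these values was not tested.

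Other voltage-gated genes were not called in microglia. Kcnd1, the Kv4.1 subunit, had 32.8 and 29.2 CPM in R241E, against 24.7, 27.7 and 30.4 CPM in WT, a log2 difference of 0.17 ± 0.17. Kcnd1 is low in the other classes, at 8.17 CPM or less, but did not meet the marking rule in every library. Kcnc1 and Kcnd2 did not overlap between genotypes and had log2 differences of 0.92 ± 0.56 and -0.87 ± 0.58, with adjusted p of 0.412 and 0.452 by edgeR. Each may have passed the filter through its higher genotype alone. Kcna2, Kcnh7, Kcnq3 and Kcnq5 overlapped. Kcna3, the Kv1.3 channel of activated microglia and T cells, had 2 UMIs in each genotype, Kcna5 had none, and Kcnq1 had 3 in R241E and 8 in WT, so a difference in these was not detectable at this depth.

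Among auxiliary members, Kcnrg fell. Kcnrg encodes a regulator that interferes with the assembly of voltage-gated channels. It had 176.5 and 231.4 CPM in R241E, against 291.8, 238.0 and 306.5 CPM in WT. R241E replicate 2 and WT replicate 2 lie close together, and the log2 fold change was -0.48 ± 0.13 with an adjusted p of 0.0270 by edgeR. The call was lost without R241E replicate 1, without WT replicate 1 and without nuclei holding neuronal marker UMIs. Kcnrg, at chr14:61607457-61612833, is overlapped by Trim13 and the long RNA Dleu2, and without stated strand use its reads cannot be told from theirs. Kcnab1 had 27.4 and 26.4 CPM in R241E, against 36.9, 30.7 and 40.9 CPM in WT, a log2 difference of -0.42 ± 0.18 with an adjusted p of 0.189 by edgeR. Kcnip1 (-1.18 ± 0.61), Kcnip3 (0.16 ± 0.16) and Kcnip4 (0.05 ± 0.20), whose products bind calcium and Kv4 channels, were not called either.

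**Figure D4:**
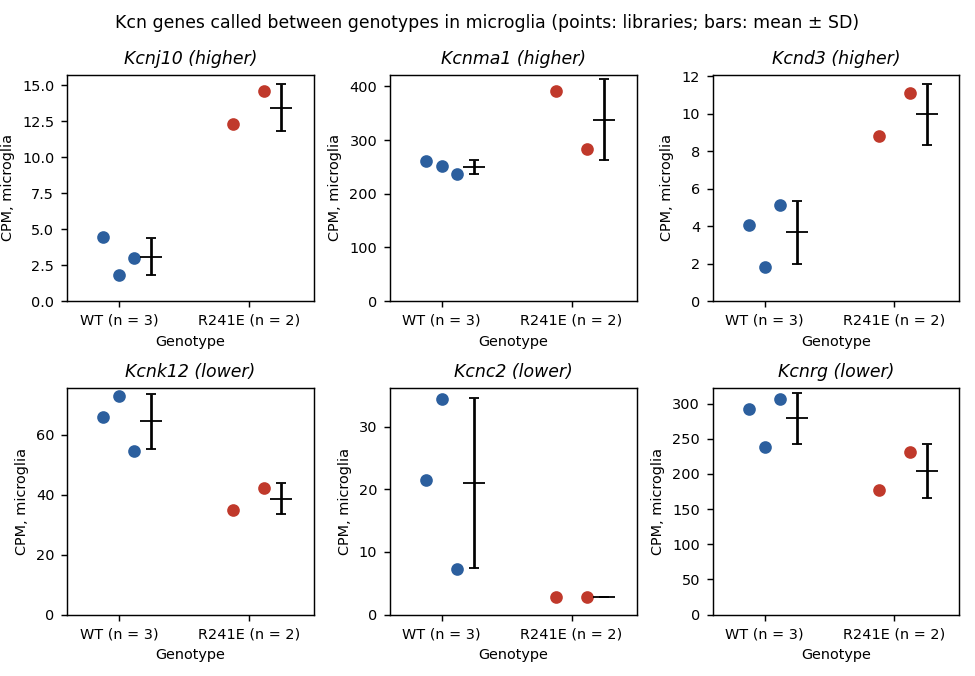
CPM in microglia of the 6 Kcn genes called between genotypes, 1 point per library (3 WT in blue, 2 R241E in red), with the mean and SD in black and vertical axes that start at 0. The points of the genotypes do not overlap in any panel, and Kcnc2 in WT spans from 7.21 to 34.4 CPM.

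Microglial clusters differed in genotype. The 2 clusters with Ifi genes, which respond to interferon, among their leading genes held 795 and 294 nuclei of the R241E libraries but 20, 55 and 52 nuclei of the WT libraries. Kcnj10 was higher in R241E outside these clusters too, at 8.61 and 20.5 CPM against 4.56, 1.69 and 3.13 CPM in WT, from 5, 12, 11, 7 and 10 UMIs. Kcnk12 outside them had 20.7 and 51.3 CPM in R241E, from 12 and 30 UMIs, against 66.7, 73.9 and 56.1 CPM in WT. These values do not overlap, but the nearest, 51.3 and 56.1 CPM, lie close together. Inside the clusters, the R241E libraries had 38.2 and 36.3 CPM of Kcnk12, and the WT libraries 36.1, 49.4 and 22.2 CPM from 2, 9 and 3 UMIs. Kcnk13 in R241E had 304.1 and 228.4 CPM inside and 316.9 and 239.2 CPM outside. Kcnma1 was high in R241E replicate 1 on both sides, at 389.7 and 396.1 CPM. These values are descriptions with no test, since the clusters came from the same nuclei.

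The genes that act with potassium channels were counted from a list of 52 in 10 sets, among them pump subunits, cotransporters, purinergic receptors and inflammasome genes. The filter passed 33 of them in microglia, of which 3 were called higher and 1 lower, beside 8.82% of all genes called and with a median log2 difference of 0.18 against -0.0 over all genes. Fxyd5, which modulates the sodium-potassium pump, rose by a log2 fold change of 2.50 ± 0.48 on 37 and 14 UMIs (adjusted p = 0.00283 by edgeR). With 23 and 14 UMIs in R241E libraries against 4, 3 and 7 in WT, Fxyd5 may have passed the filter through R241E alone. Casp1, the inflammasome protease, rose from 21.1, 21.2 and 27.7 CPM in WT to 42.6 and 44.5 CPM in R241E, and Gsdmd, the pore protein it cleaves, from 164.1, 176.9 and 223.0 to 260.1 and 249.5 CPM. Nlrp3, the sensor set off by potassium efflux, fell from 100.5, 71.3 and 78.7 CPM in WT to 55.2 and 44.5 CPM in R241E. The adjusted p-values by edgeR were 0.00320 for Casp1, 0.0313 for Gsdmd and 0.0118 for Nlrp3. The call of Casp1 was lost without R241E replicate 1 and without nuclei holding astrocyte or oligodendrocyte marker UMIs (adjusted p = 0.0936 by edgeR). That of Nlrp3 was lost without R241E replicate 2 and without nuclei holding neuronal marker UMIs (adjusted p = 0.0591 by edgeR), and that of Gsdmd without either R241E library or without WT replicate 1 or 2. Fxyd5 was called in all 14 other settings.

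In 5 other classes no member was called between genotypes by edgeR. Few genes were called there at all: 0.43% in astrocytes, 0.0111% in neurons, 0.224% in oligodendrocytes, 0.987% in border-associated macrophages and 0.0% in mural cells. At an unadjusted p below 0.05 there were 6 of 21 members in astrocytes, where 9.23% of all genes tested lay below it, and 15 of 38 in neurons, where 9.48% did. There were 1 of 11 in oligodendrocytes (4.94% of all genes), 0 of 6 in border-associated macrophages (8.22%) and 2 of 5 in mural cells (4.51%). DESeq2 called 2 members in neurons, Kcna2 and Kcnip1, and none in the other 4 classes, and limma-voom called none in any of the 5. Fibroblasts are given apart because of the leading genes of their cluster of 44 nuclei, described above, although 8 of 9 fibroblast markers were detected in it. There 1 of 5799 genes tested was called, and it was not a member. At an unadjusted p below 0.05 there were 5 of 12 members (7.09% of all genes). The smallest was Kcnrg, with a log2 difference of -1.15 ± 0.28 and an adjusted p of 0.252 by edgeR. Whether any of these classes differs from microglia in its channel genes was not tested.

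In astrocytes the member with the smallest p was the marking Kcnj16, with a log2 difference of 1.52 ± 0.39 and an adjusted p of 0.155 by edgeR, and the R241E libraries lay above all WT libraries. Astrocyte nuclei fell into 2 clusters of different genotype makeup, 1 with 173 of its 336 nuclei from R241E replicate 1 and the other with 119 of its 237 from WT replicate 3. In neurons Kcna2, a Shaker-type axonal channel, had 69.5 and 159.1 CPM in R241E, against 22.3, 8.67 and 5.54 CPM in WT, with an adjusted p of 0.156 by edgeR. WT replicate 1 gave 273 of the neuronal nuclei, more than any other library, and most of the GABAergic clusters of 190 and 19 nuclei. R241E replicate 2, with the highest Kcna2 value, gave 46 of the 64 nuclei of another GABAergic cluster and 22 of 43 of a pan-neuron cluster. Cluster makeup and genotype therefore cannot be told apart in neurons. In oligodendrocytes Kcnh7 had a log2 difference of -1.73 ± 0.56 (adjusted p = 0.715 by edgeR). In mural cells Kcnj8 had a log2 difference of 0.50 ± 0.22 (adjusted p = 0.999 by edgeR). In border-associated macrophages, the class closest to microglia in its use of Kcnk13, Kcnk13 was at 291.5 and 290.9 CPM in R241E and 365.8, 181.7 and 172.5 CPM in WT, a log2 difference of 0.31 ± 0.27.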

How the data were processed

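The authors deposited 1 matrix of raw UMI counts per library, made with Cell Ranger 7.0.0 on mm10 and limited to called barcodes. Whether intronic reads or strand entered the counting is not given in the sources used here. Nuclei with at least 200 and under 4500 genes, under 10000 UMIs and under 5% mitochondrial UMIs were kept, following the study's limits. No doublet caller was run. Nuclei were clustered with scanpy 1.11.5 (3000 variable genes without Kcn genes, 30 components, 20 neighbours, Leiden resolution 1) and named from marker lists. Counts were summed per library and class and tested with edgeR 4.0.16 (filterByExpr, TMM, quasi-likelihood, Benjamini-Hochberg over all genes tested in the class). In a test on simulated microglial data, 131 of 200 genes changed 2-fold were recovered, with 7 false calls among 12439 genes. Alternatives were DESeq2 1.42.0 (Wald test, size factors), limma-voom, no filter, left-out libraries and other sets of nuclei. Members and lists were chosen with earlier results of these data known. Genes were named by rule: per class up to 4 marking members of largest fold, in microglia all called members, the 5 uncalled of smallest p and a set of 10 channels described in microglia. Members outside this rule were chosen after their values were seen. Intervals cover counting error only. A marking member is not reported by name here.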

Additional observations from a re-analysis of the deposited data

How the results depend on the processing

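Of the 6 members called in microglia, the count was 1 to 6 when a library was left out. It was 1 without R241E replicate 1 (Kcnj10), and 3 without WT replicate 1 and without WT replicate 2. It was 3 without nuclei holding neuronal marker UMIs (3425 nuclei left). It was 4 without nuclei holding astrocyte or oligodendrocyte marker UMIs, an alternative chosen after seeing the data. Over all genes tested, 931 of 11465 and 748 of 10812 were called in these fits. Without WT replicate 1, 874 of 12516 genes were called, and without WT replicate 2, 721 of 12197. Kcnj10 was called in 13 of 14 settings, all but the one without astrocyte or oligodendrocyte marker UMIs. With an R241E library left out, the other is assumed to vary like the WT libraries. Without R241E replicate 1 the estimate of Kcnj2, which was not called, turned to -0.68 (leaving out libraries, -0.68 to 0.61). Replicate numbers are shared between genotypes, and no label says what they mark. After each genotype was centred, same-numbered libraries had r = 0.103 and -0.0191. The centred values of 2 R241E libraries mirror each other, so this check cannot show whether a number marks a litter or batch. With the number as a block, 7 members were called in microglia, Kcnk13 added, and 9 partner genes instead of 4. Over all genes the block called 2013 of 12689, against 1119 without it. WT replicate 3 has no R241E library of its number. The block called 1 member in astrocytes, 8 in neurons and 1 in oligodendrocytes, where 0 were called without it. Left-out libraries gave 2 to 4 partner genes, with 2 without R241E replicate 1 and 2 without R241E replicate 2. They gave 0 to 2 members in astrocytes and, among neuronal nuclei, 0 to 1. With no filter on low counts, 4 members were called in astrocytes, 12 in neurons and 1 in oligodendrocytes. The share of all genes called in these classes with the block or without the filter is not given here. DESeq2 called 2 in neurons. Of the 23 cases of a member marking a class, each alternative shared 20 to 23 and made 20 to 31 in all. For single named genes, 209 values kept direction and call, 26 lost the call, 1 gained it and 1 reversed. The cause of these changes was not tested. At this depth 73 members were too low to test in microglia.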

Other observations

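The classes with too few nuclei for the marking rule are described by the pair of members with the most UMIs in each, a choice that is not scaled by gene length and ranks no levels. The 60 endothelial nuclei held 14 UMIs of Kcnip4 and 10 UMIs of Kcnrg. The 188 tanycyte nuclei had 743.7 pooled CPM of Kcnip4 and 656.8 of Kcnma1, and the 53 pituitary nuclei had 992.4 pooled CPM of Kcnma1 and 527.5 of Kcnip4. Most nuclei of the last 2 classes came from R241E replicate 1, so these levels have no replicate check.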
